A study of Mus musculus with 20 samples.

Results

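This comparison set CD8 T cells against the CD11c+CD11b- fraction sorted from the same irradiated mouse tumours. Libraries were chosen by their labels and covered 8 of the 20 in the series, 4 CD8 T and 4 CD11c+CD11b-. The tumours were MC38-OVA, a colon carcinoma line that expresses ovalbumin, grown in C57BL/6 mice, and every tumour received focal radiotherapy (RT) of 8 Gy on day 12 and was harvested on day 17. The 4 treatment pools received RT alone, RT with anti-SIRPa (400 µg on days 12, 14 and 16), RT with anti-PD-1 (250 µg on days 12 and 15), or the 2 antibodies together with RT. Both populations of a pool came from the leukocytes of the same 10 tumours, 1 from each mouse, so the libraries were compared within pools. The untreated pool was not used. SIRPa sits on myeloid cells and holds back phagocytosis when it meets CD47, and PD-1 inhibits T cells that have been activated.

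CD8 T cells recognise antigen through a T cell receptor held at the surface by the CD3 chains, and kill through perforin and granzymes. Natural killer (NK) cells use the same killing machinery but are steered by germline-encoded receptors such as NKp46 and the Ly49 and NKR-P1 families, and many of them carry CD11c. Dendritic cells also carry CD11c. Among them, plasmacytoid dendritic cells are specialised in interferon production after nucleic acid sensing, and type 1 conventional dendritic cells (cDC1) in cross-presentation of antigen to CD8 T cells.

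Each library held between 21.5 and 28.1 M (mega) estimated counts, and mitochondrial genes took 0.86 to 1.22% of them. No treatment had a second pool. The error of a difference was therefore its variation over 4 pools that were treated differently, and the p-values do not measure spread between like-treated pools. Gene levels are given as normalised CPM, counts scaled to the size of the library. Differences are log2 differences, CD8 T minus CD11c+CD11b-, with a standard error (SE), and a gene was said to pass at a Benjamini-Hochberg adjusted p under 0.05 in edgeR's quasi-likelihood test, called edgeR adjusted p. Where 4 values are listed for a population, the first is from the pool given RT alone, the second from the anti-SIRPa pool, the third from the anti-PD-1 pool and the last from the pool given both antibodies. In bulk libraries of sorted cells, fewer cells of a type and less RNA per cell cannot be told apart. Positions are on GRCm38.

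The labels call the second fraction dendritic cells. It held dendritic cell transcripts, and beside them the transcripts of NK cell receptors, so it is called here by its sort gate. Transcripts of the 7 marker genes separated the populations in every pool. Cd8a (chromosome 6, 71373427 to 71379173), the alpha chain of the CD8 co-receptor, was at 795, 753, 1189.1 and 1148.5 CPM in CD8 T libraries, against 27.4, 28.7, 40.8 and 27.7 CPM in CD11c+CD11b- libraries. The lowest CD8 T library was far above the highest CD11c+CD11b- one, and the log2 difference was 4.95 ± 0.13 (SE, n = 4 pools, edgeR adjusted p = 1.15e-05). Cd3e (chromosome 9, 44998740 to 45009627), the CD3 epsilon chain, was at 397, 377, 577 and 514 CPM in CD8 T libraries, against 6.03, 11.9, 5.57 and 6.18 CPM in CD11c+CD11b- libraries. Its log2 difference was 6.00 ± 0.30 (SE, n = 4 pools, edgeR adjusted p = 9.17e-05), and the RT with anti-SIRPa library was the highest of the CD11c+CD11b- set. Pdcd1 (chromosome 1, 94038305 to 94052553), which encodes PD-1, was at 267, 230, 349 and 332 CPM in CD8 T libraries, against 14.8, 14.1, 18.3 and 20.7 CPM in CD11c+CD11b- libraries. The groups did not overlap, with a log2 difference of 4.11 ± 0.09 (SE, n = 4 pools, edgeR adjusted p = 8.38e-06).

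The NK and dendritic cell markers stood the other way. Ncr1 (chromosome 7, 4337724 to 4345164), which encodes the NK receptor NKp46, was at 1.99, 1.57, 1.47 and 1.11 CPM in CD8 T libraries, against 269, 301, 248 and 282 CPM in CD11c+CD11b- libraries. Its log2 difference was -7.50 ± 0.17 (SE, n = 4 pools, edgeR adjusted p = 8.38e-06). Klra8 (chromosome 6, 130115226 to 130129898), the activating receptor Ly49H, was at 0.707, 0.70, 1.04 and 0.66 CPM in CD8 T libraries, against 104, 127, 100 and 140 CPM in CD11c+CD11b- libraries. Both genes were near the floor in all CD8 T libraries and steady over the 4 CD11c+CD11b- libraries, and the log2 difference of Klra8 was -7.23 ± 0.20 (SE, n = 4 pools, edgeR adjusted p = 1.15e-05).

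Siglech (chromosome 7, 55768178 to 55778925), a lectin of plasmacytoid dendritic cells, was at 6.76, 2.97, 2.55 and 1.60 CPM in CD8 T libraries, against 173, 47.2, 239 and 125 CPM in CD11c+CD11b- libraries. Xcr1 (chromosome 9, 123852315 to 123862029), the chemokine receptor of cDC1, was at 8.75, 10.1, 11.0 and 8.65 CPM in CD8 T libraries, against 70.4, 30.1, 78.1 and 65.6 CPM in CD11c+CD11b- libraries. The groups did not overlap for either gene, and for both the RT with anti-SIRPa library was the lowest and the RT with anti-PD-1 library the highest of the CD11c+CD11b- set. The log2 differences were -5.35 ± 0.47 for Siglech (SE, n = 4 pools, edgeR adjusted p = 0.000623) and -2.60 ± 0.25 for Xcr1 (SE, n = 4 pools, edgeR adjusted p = 0.00101).

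**Figure D1:**
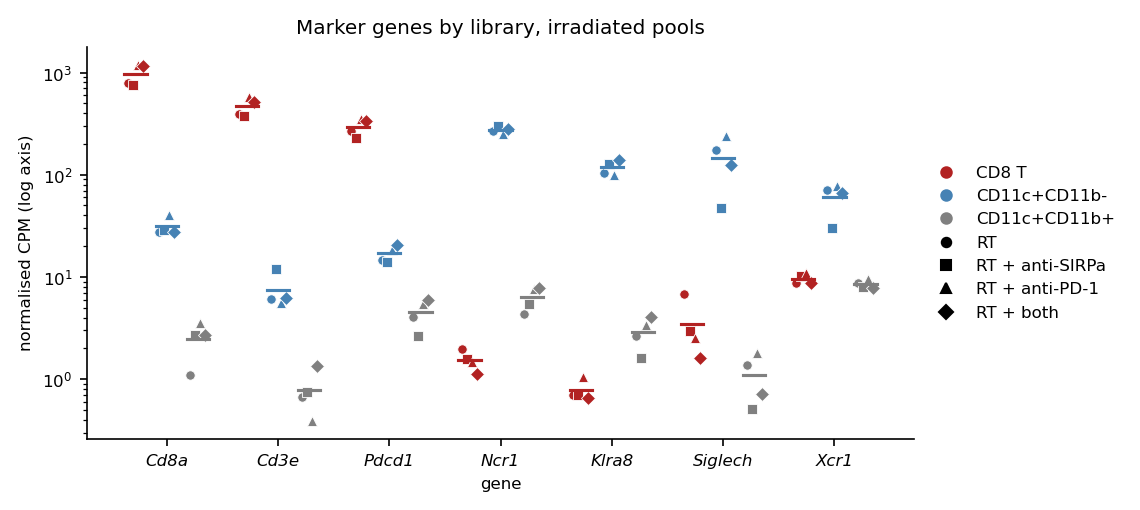
Normalised CPM (log axis) of the 7 marker genes in each irradiated library of CD8 T, CD11c+CD11b- and CD11c+CD11b+ cells. Point shapes give the treatment of the pool and bars the mean of 4 libraries. Cd8a, Cd3e and Pdcd1 were highest in CD8 T libraries, Ncr1, Klra8, Siglech and Xcr1 in CD11c+CD11b- libraries.

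The start regions of the genes that stand for the T cell, NK, plasmacytoid and cDC1 programmes are shown because these 4 genes mark the programmes that the comparison sets apart. They are RefSeq promoters on GRCm38.p6, 300 bases each, with 250 before the transcription start and 50 after it, written 5′ to 3′ on the gene's strand. Cd3e lies at chr9:45009562-45009861 on the minus strand, Ncr1 at chr7:4337465-4337764 on the plus strand (the first of its 2 entries), Siglech at chr7:55767934-55768233 on the plus strand and Xcr1 at chr9:123861980-123862279 on the minus strand. Capitals mark matches, on either strand, to 5 short motifs: AGGTGT (T-box), ACCACA (RUNX), CTTTGA (TCF/LEF), GAGGAA (PU.1) and CANCTG (E-box).
Cd3e: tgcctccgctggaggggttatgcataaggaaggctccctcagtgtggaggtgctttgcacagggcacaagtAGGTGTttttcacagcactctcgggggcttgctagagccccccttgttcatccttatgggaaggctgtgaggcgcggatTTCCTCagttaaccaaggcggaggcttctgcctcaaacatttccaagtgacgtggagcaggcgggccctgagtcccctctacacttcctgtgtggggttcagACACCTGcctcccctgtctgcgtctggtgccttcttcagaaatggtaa
Ncr1: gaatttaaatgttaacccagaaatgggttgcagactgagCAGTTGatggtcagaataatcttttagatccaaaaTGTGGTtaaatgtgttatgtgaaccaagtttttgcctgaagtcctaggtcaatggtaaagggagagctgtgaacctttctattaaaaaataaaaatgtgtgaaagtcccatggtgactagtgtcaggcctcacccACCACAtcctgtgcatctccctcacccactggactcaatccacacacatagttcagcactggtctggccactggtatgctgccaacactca
Siglech: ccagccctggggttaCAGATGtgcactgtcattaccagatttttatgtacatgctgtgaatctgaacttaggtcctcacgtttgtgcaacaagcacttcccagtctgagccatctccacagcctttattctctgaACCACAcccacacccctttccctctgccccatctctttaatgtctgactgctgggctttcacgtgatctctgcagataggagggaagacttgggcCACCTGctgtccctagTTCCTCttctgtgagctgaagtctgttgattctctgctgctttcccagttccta
Xcr1: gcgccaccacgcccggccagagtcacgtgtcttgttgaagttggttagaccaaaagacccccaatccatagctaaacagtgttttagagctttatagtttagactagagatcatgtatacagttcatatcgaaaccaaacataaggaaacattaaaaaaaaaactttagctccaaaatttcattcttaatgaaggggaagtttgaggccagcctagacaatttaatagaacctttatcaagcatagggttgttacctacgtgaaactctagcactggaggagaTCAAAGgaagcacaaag

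The Cd3e window held 2 T-box matches, of which the second overlapped its E-box match, and 1 PU.1 match. The Ncr1 window held 2 RUNX matches and 1 E-box match. Siglech had 2 E-box matches, 1 RUNX match and 1 PU.1 match, and Xcr1 had 1 TCF/LEF match. Of 32851 RefSeq promoters of this length, 13.7% held the T-box motif, 16.8% the RUNX motif, 16.0% the TCF/LEF motif, 28.3% the PU.1 motif and 51.4% the E-box motif. The matches describe letters in these windows and are not evidence of binding.

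Across all genes, 3587 of 18866 tested passed (19.0%), 1616 higher (8.57%) and 1971 lower (10.4%) in CD8 T cells. The counts depended on the pools: without the RT pool 832 genes were higher and 1087 lower, without the RT with anti-PD-1 pool 1160 and 1427, and without the pool given both antibodies 770 and 891. Without the RT with anti-SIRPa pool they were larger, with 1953 genes higher and 2287 lower. The median log2 difference of all genes tested was 0.001. A stricter test, which asks for a log2 difference beyond 1, left 834 genes (4.42%), 370 higher (1.96%) and 464 lower (2.46%). The list counts below are to be read beside the share of all genes in the same direction and test.

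**Figure D2:**
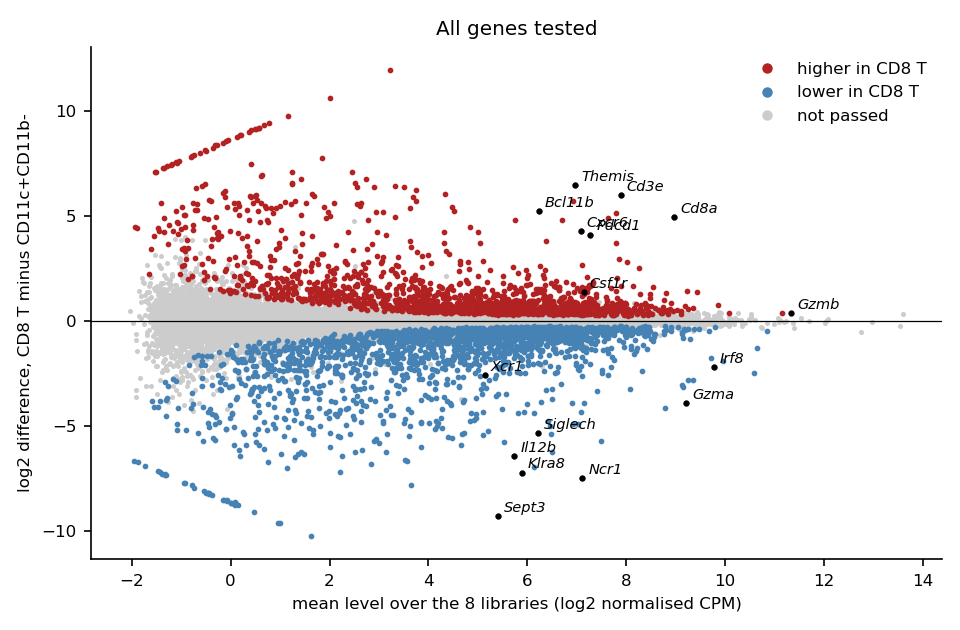
Log2 difference, CD8 T minus CD11c+CD11b-, against the mean level over the 8 libraries (log2 normalised CPM) for 18866 genes. Red points passed and were higher in CD8 T cells (1616), blue points passed and were lower (1971), and grey points did not pass.

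Some genes at low levels and many T cell receptor segments had larger fitted differences than the genes named next. Among passing genes at 10 CPM or more in at least 2 libraries, with the same direction in all 4 pools and with predicted models, receptor segments and pseudogenes left out, the largest differences on the CD8 T side were those of Themis, Nrn1, Cd3e, Exph5, Cd6, Unc13b, Bcl11b, Slc17a6, Gldc and Cd8a. Themis, which tunes T cell receptor signals, was at 221, 211, 293 and 265 CPM in CD8 T libraries, against 1.34, 4.08, 2.20 and 3.83 CPM in CD11c+CD11b- libraries (log2 difference 6.47 ± 0.30, SE, n = 4 pools, edgeR adjusted p = 8.01e-05). Cd6, a T cell co-receptor, was at 201, 206, 250 and 293 CPM in CD8 T libraries, against 3.99, 6.45, 3.84 and 3.83 CPM in CD11c+CD11b- libraries. Bcl11b, the transcription factor that fixes T cell identity, was at 113, 122, 172 and 176 CPM in CD8 T libraries, against 2.68, 3.71, 4.45 and 4.63 CPM in CD11c+CD11b- libraries. For all 3 genes the groups were wide apart. Also in this set were Nrn1, which encodes neuritin, at 19.7, 15.9, 30.2 and 23.2 CPM in CD8 T libraries against 0, 0.556, 0 and 0.493 CPM in CD11c+CD11b- libraries, and Slc17a6, a vesicular glutamate transporter, at 48.9, 32.7, 45.7 and 51.3 CPM against 0.372, 1.71, 1.34 and 1.44 CPM. Nrn1 overlaps Fars2 on the opposite strand, and whether the counting used strand is not given in the sources used here. Other genes named below also overlap a protein-coding gene on the opposite strand, among them Cd247, Tnfrsf9, Cd244a, Gzmk, Ciita, Foxp3 and Cxcr6.

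On the other side, by the same rule, stood Sept3, Gcsam, Ncr1, Klra8, Plet1, Gpr33, Gpr141b, Spata31d1b, Il12b and Timd4. Sept3, a septin, was at 0, 0, 0 and 0.486 CPM in CD8 T libraries, against 93.6, 23.6, 126 and 95.2 CPM in CD11c+CD11b- libraries. Il12b, the p40 subunit of interleukin 12, was at 1.19, 1.32, 1.24 and 0.903 CPM in CD8 T libraries, against 124, 51.1, 135 and 108 CPM in CD11c+CD11b- libraries (log2 difference -6.43 ± 0.28, SE, n = 4 pools, edgeR adjusted p = 8.01e-05). Plet1 was at 1.55, 1.40, 0.696 and 0.66 CPM in CD8 T libraries, against 181, 52.3, 180 and 147 CPM in CD11c+CD11b- libraries. The RT with anti-SIRPa library was the lowest CD11c+CD11b- library for each of these 3 genes.

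Among 24 genes of the T cell receptor complex and its signalling, 23 were higher in CD8 T cells and none lower, with a median log2 difference of 2.71. The size ran over a wide range within the complex. The CD3 chains Cd3d and Cd3g differed by 4.81 ± 0.20 and 4.91 ± 0.18, Trac, the receptor's alpha constant region, by 5.16 ± 0.21, and the adaptor Lat by 3.81 ± 0.19 (SE, n = 4 pools each). Cd247, the zeta chain that NK receptors also use, differed by 1.80 ± 0.16, and the kinases Lck and Zap70 by 1.10 ± 0.15 and 1.20 ± 0.13. Lck was at 432, 383, 588 and 561 CPM in CD8 T libraries, against 198, 267, 217 and 225 CPM in CD11c+CD11b- libraries. The groups did not overlap. Skap1, an adaptor, differed by 0.43 ± 0.10 (edgeR adjusted p = 0.0255), and Sh2d2a, another adaptor, by 0.42 ± 0.13 without passing (edgeR adjusted p = 0.0687).

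The beta chain constant regions differed less than the alpha one. Trbc1 was at 182, 194, 187 and 245 CPM in CD8 T libraries, against 99.1, 115, 94.8 and 113 CPM in CD11c+CD11b- libraries, a log2 difference of 0.93 ± 0.08 (SE, n = 4 pools, edgeR adjusted p = 0.000684). Trbc2 was at 395, 305, 610 and 500 CPM in CD8 T libraries, against 58.4, 68.4, 60.3 and 61.3 CPM in CD11c+CD11b- libraries, a log2 difference of 2.82 ± 0.19 (SE, n = 4 pools, edgeR adjusted p = 0.000215). The groups did not overlap for either. The 2 regions are near-identical in sequence, so the split of reads between them is uncertain.

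All 18 genes on the NK list were lower in CD8 T cells, with a median log2 difference of -3.15 against 0.001 over all genes. This list and the others were chosen with earlier results of these data known, and receptors shared with CD8 T cells were listed apart. The count therefore describes the members and is not independent support. The NKR-P1 receptor Klrb1c (the NK1.1 antigen) was at 4.73, 8.77, 9.97 and 8.20 CPM in CD8 T libraries, against 210, 276, 207 and 249 CPM in CD11c+CD11b- libraries. The other Ly49 genes on the list, Klra1, Klra3, Klra4, Klra7 and Klra9, differed by log2 values from -2.18 to -3.99. Members of the Klra and Klrb1 families are close in sequence, and their separate values are uncertain. Tyrobp, the adaptor DAP12 that activating NK and myeloid receptors share, was at 81.1, 71.7, 41.5 and 54.4 CPM in CD8 T libraries, against 324, 288, 325 and 286 CPM in CD11c+CD11b- libraries. No library of either set reached the other's range for these genes.

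The NK genes were also compared with the CD11c+CD11b+ fraction of the same pools, in a test that shares the CD11c+CD11b- libraries with the main one. Ncr1 averaged 275 ± 22.3 CPM in CD11c+CD11b- cells and 6.33 ± 1.7 CPM in CD11c+CD11b+ cells (SD, n = 4 each), with a difference of 5.44 ± 0.18 on the log2 scale (SE, edgeR adjusted p = 3.19e-06). Klra8 averaged 118 ± 18.9 CPM in CD11c+CD11b- cells and 2.92 ± 1.06 CPM in CD11c+CD11b+ cells (SD, n = 4 each), which differed by a log2 value of 5.34 ± 0.23 (SE, edgeR adjusted p = 5.4e-06). Relative to CD11c+CD11b+ cells, 15 of the 18 NK genes were higher and 2 lower. Those 2 were the shared adaptors Tyrobp (log2 difference -0.49 ± 0.06) and Fcer1g (-1.41 ± 0.10), and Sh2d1b1 did not pass (0.03 ± 0.06, SE, n = 4 pools each). Of all genes tested there, 50.8% passed, 26.1% higher and 24.6% lower in CD11c+CD11b- cells.

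Receptors that NK and CD8 T cells share were divided, with 9 of 16 higher and 4 lower in CD8 T cells. Of all genes, 8.57% were higher and 10.4% lower. The median log2 difference of the list was 0.44. Without the RT pool 6 of these receptors were higher and 3 lower, and beyond a log2 difference of 1 the counts were 1 and 1. Klrk1, which encodes NKG2D, was at 274, 234, 330 and 314 CPM in CD8 T libraries, against 364, 389, 369 and 410 CPM in CD11c+CD11b- libraries (log2 difference -0.43 ± 0.10, SE, n = 4 pools, edgeR adjusted p = 0.0282). Klrc1, the inhibitory NKG2A chain, differed by 1.15 ± 0.14 and Cd226, an activating adhesion receptor, by 1.71 ± 0.09. Klrg1, a receptor of terminally differentiated effector cells, was at 5.35, 4.90, 5.91 and 6.39 CPM in CD8 T libraries, against 29.1, 30.4, 24.3 and 27.9 CPM in CD11c+CD11b- libraries, and did not overlap. Il2rb, the interleukin 2 and 15 receptor beta chain, did not pass, at 1342.6, 1235.7, 1933.2 and 1718.1 CPM in CD8 T libraries and 1772.1, 2186.4, 1870.1 and 1824.7 CPM in CD11c+CD11b- libraries (log2 difference -0.32 ± 0.15).

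The cytotoxic genes did not follow a single direction. Of 18, 3 were higher and 6 lower in CD8 T cells, beside 8.57% and 10.4% of all genes. The median log2 difference was -0.09. Without the RT with anti-SIRPa pool 6 were higher and 6 lower. The counts were 2 and 4 without the RT pool, and 2 and 6 without the RT with anti-PD-1 pool. They were 2 and 5 without the pool given both antibodies, and 1 and 2 beyond a log2 difference of 1. Gzmb, granzyme B, was at 2483.5, 1761.5, 4344.1 and 3374.2 CPM in CD8 T libraries, against 2101.4, 2857.4, 1816.9 and 2061.6 CPM in CD11c+CD11b- libraries. The groups overlapped, and its log2 difference of 0.38 ± 0.29 had a 95% interval from -0.31 to 1.07 (SE, n = 4 pools, edgeR adjusted p = 0.445). Prf1, perforin, was at 690, 567, 1374.6 and 977 CPM in CD8 T libraries, against 939, 1211.1, 914 and 959 CPM in CD11c+CD11b- libraries. It overlapped too, and the log2 difference of -0.24 ± 0.25 had a 95% interval from -0.83 to 0.36 (SE, n = 4 pools, edgeR adjusted p = 0.597).

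Granzyme A and granzyme K differed in opposite directions. Gzma was at 47.5, 32.0, 143 and 120 CPM in CD8 T libraries, against 998, 1323.4, 1003.2 and 1056.0 CPM in CD11c+CD11b- libraries (log2 difference -3.91 ± 0.45, SE, n = 4 pools, edgeR adjusted p = 0.00178). Gzmk was at 28.4, 21.4, 52.8 and 48.4 CPM in CD8 T libraries, against 1.45, 2.45, 2.07 and 1.55 CPM in CD11c+CD11b- libraries (log2 difference 4.24 ± 0.30, SE, n = 4 pools, edgeR adjusted p = 0.000278). Neither gene overlapped, and in CD8 T cells both were higher in the 2 libraries given anti-PD-1 than in the 2 without. Lower levels without anti-PD-1 were not particular to these granzymes. Of 24 T cell receptor genes, the lowest CD8 T library was the RT one for 7 and the RT with anti-SIRPa one for 17. All 12 macrophage markers were lowest in the RT with anti-PD-1 library of CD8 T cells. Treatment and pool cannot be told apart here. Gzmc was at 523, 325, 463 and 353 CPM in CD8 T libraries, against 1646.2, 1959.6, 1269.8 and 1400.8 CPM in CD11c+CD11b- libraries (log2 difference -1.93 ± 0.18, SE, n = 4 pools, edgeR adjusted p = 0.000919). Gzmc to Gzmg are neighbouring paralogs, and their separate values are uncertain.

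**Figure D3:**
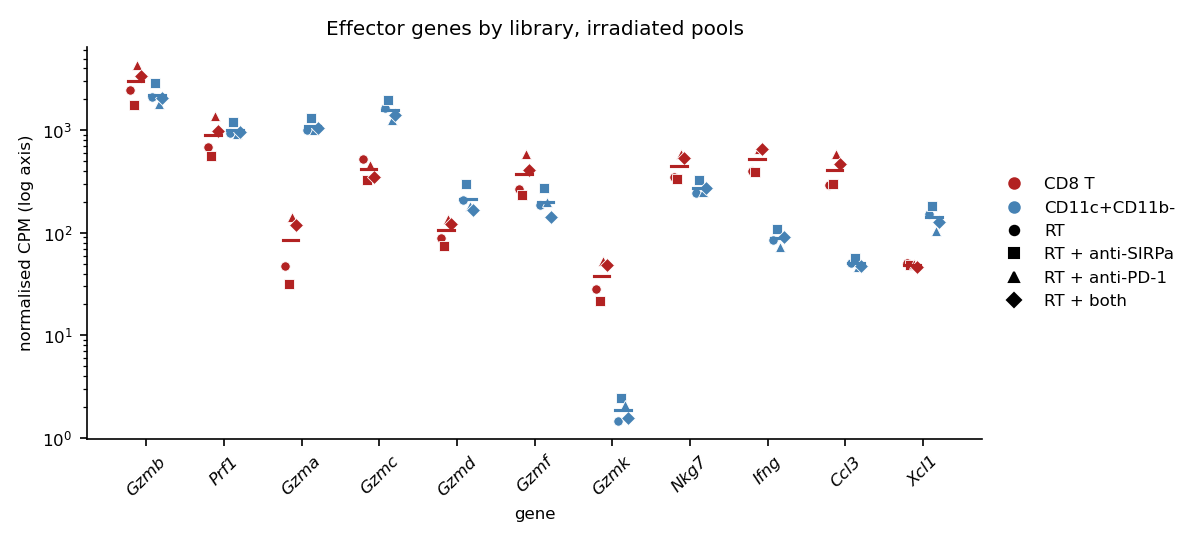
Normalised CPM (log axis) of 11 effector genes in each irradiated CD8 T and CD11c+CD11b- library. Point shapes give the treatment of the pool and bars the mean of 4 libraries. Gzmb and Prf1 overlapped between populations, Gzma, Gzmc and Xcl1 were lower in CD8 T libraries, and Gzmk, Ifng and Ccl3 were higher.

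Cytokine and chemokine genes leaned towards CD8 T cells, 8 of 14 higher and 2 lower, beside 8.57% and 10.4% of all genes. The median log2 difference was 1.47. Ifng, interferon gamma, was at 401, 392, 660 and 660 CPM in CD8 T libraries, against 84.5, 108, 72.9 and 91.8 CPM in CD11c+CD11b- libraries (log2 difference 2.53 ± 0.22, SE, n = 4 pools, edgeR adjusted p = 0.000615). Ccl3, an inflammatory chemokine, was at 293, 299, 582 and 468 CPM in CD8 T libraries, against 50.6, 56.5, 46.5 and 47.7 CPM in CD11c+CD11b- libraries. Xcl1, the ligand of XCR1, was at 51.0, 48.2, 49.4 and 46.4 CPM in CD8 T libraries, against 153, 181, 104 and 126 CPM in CD11c+CD11b- libraries (log2 difference -1.51 ± 0.14, SE, n = 4 pools, edgeR adjusted p = 0.000712). Its receptor gene stood on the same side of the comparison.

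Inhibitory receptors and exhaustion genes were mostly higher in CD8 T cells, 11 of 16, and 3 were lower, beside 8.57% and 10.4% of all genes. Beside Pdcd1, Ctla4 differed by 2.05 ± 0.09, Lag3 by 1.85 ± 0.13, Havcr2 (TIM-3) by 2.10 ± 0.11 and the exhaustion factor Tox by 2.12 ± 0.11 (SE, n = 4 pools each). Tigit had the smallest passing difference of this set on the CD8 T side, 0.66 ± 0.16. The lower ones were Cd244a (-1.99 ± 0.10), a receptor of NK and exhausted T cells, Btla (-2.32 ± 0.27), the receptor for herpesvirus entry mediator, and Cd200 (-1.07 ± 0.19). Tnfrsf9, the activation receptor 4-1BB, was at 380, 311, 517 and 483 CPM in CD8 T libraries and 402, 465, 360 and 393 CPM in CD11c+CD11b- libraries and did not pass (log2 difference 0.03 ± 0.17).

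Lymphoid transcription factors split by gene, with 9 of 18 higher and 4 lower, beside 8.57% and 10.4% of all genes. Eomes, the T-box factor of NK and memory CD8 T cells, was at 48.2, 42.4, 53.4 and 54.8 CPM in CD8 T libraries, against 199, 276, 195 and 212 CPM in CD11c+CD11b- libraries (log2 difference -2.14 ± 0.15, SE, n = 4 pools, edgeR adjusted p = 0.000221). Its paralog Tbx21 was close between them, at 105, 112, 144 and 134 CPM in CD8 T libraries and 83.1, 103, 95.4 and 96.3 CPM in CD11c+CD11b- libraries (log2 difference 0.38 ± 0.09, SE, n = 4 pools, edgeR adjusted p = 0.0327). Tcf7, which encodes TCF1 of stem-like T cells and early innate lymphocytes, did not pass, at 119, 107, 124 and 124 CPM in CD8 T libraries and 117, 115, 141 and 123 CPM in CD11c+CD11b- libraries (log2 difference -0.07 ± 0.07). Ikzf2 (1.45 ± 0.10), Prdm1 (1.34 ± 0.16) and Rora (2.19 ± 0.21) were higher in CD8 T cells.

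Among chemokine receptors, 7 of 16 were higher and 6 lower, beside 8.57% and 10.4% of all genes. Cxcr6, the receptor for CXCL16, was at 214, 181, 344 and 290 CPM in CD8 T libraries, against 12.4, 12.7, 10.7 and 14.9 CPM in CD11c+CD11b- libraries (log2 difference 4.29 ± 0.20, SE, n = 4 pools, edgeR adjusted p = 8.01e-05). Ccr7, which guides dendritic cells to lymph nodes, was at 36.5, 32.4, 32.4 and 46.0 CPM in CD8 T libraries, against 271, 120, 333 and 227 CPM in CD11c+CD11b- libraries. The groups did not overlap for either receptor.

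Markers of plasmacytoid cells, cDC1 and mature dendritic cells were lower in CD8 T cells, 11 of 16, 16 of 16 and 14 of 14, with median log2 differences of -3.78, -3.42 and -2.41. On the plasmacytoid list 1 gene, Runx2, was higher in CD8 T cells, a call that was lost without the RT pool, without the pool given both antibodies, without the pairing by pool, without the filter on low counts and in the test beyond a log2 difference of 1. The cDC2 list was mixed, with 5 of 10 genes lower and 2 higher and a median log2 difference of -0.96. Ccl17, a chemokine, differed by -5.02 ± 0.24 and Cd209a, a lectin, by -4.38 ± 0.45, while Irf4, a transcription factor that activated T cells also use, was higher by 2.43 ± 0.16 and S100a4 by 0.93 ± 0.14 (SE, n = 4 pools each). Among cDC1 genes, Clec9a, a receptor for dead cells, was at 1.81, 1.77, 0.271 and 0.834 CPM in CD8 T libraries, against 53.0, 23.9, 69.3 and 55.0 CPM in CD11c+CD11b- libraries. Flt3, the receptor of the dendritic cell growth factor, was at 2.43, 2.64, 2.67 and 1.18 CPM in CD8 T libraries, against 185, 80.7, 263 and 185 CPM in CD11c+CD11b- libraries (log2 difference -6.26 ± 0.38, SE, n = 4 pools, edgeR adjusted p = 0.000151). Irf8, the factor that cDC1 and plasmacytoid cells need, was at 291, 254, 358 and 342 CPM in CD8 T libraries, against 1424.3, 1162.1, 1741.3 and 1419.7 CPM in CD11c+CD11b- libraries. The factor was thus well above the floor in CD8 T cells, unlike Clec9a and Flt3.

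All 10 genes of MHC class II presentation were lower in CD8 T cells, with a median log2 difference of -2.82. H2-Aa, a class II chain, was at 216, 199, 93.5 and 130 CPM in CD8 T libraries, against 1346.7, 501, 1600.1 and 1143.4 CPM in CD11c+CD11b- libraries (log2 difference -2.82 ± 0.43, SE, n = 4 pools, edgeR adjusted p = 0.00569). Ciita, the class II transactivator, differed by -3.71 ± 0.41. Class II genes are close paralogs, and their separate values are uncertain.

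The pools did not contribute evenly to the dendritic cell groups. In CD11c+CD11b- cells, the RT with anti-SIRPa library was the lowest of the 4 for 14 of 16 plasmacytoid genes, 16 of 16 cDC1 genes, 14 of 14 mature dendritic cell genes and 10 of 10 class II genes. The same library was the highest for 12 of 18 NK genes. The summed level of the cDC1 list was 2165.7 CPM in that library, against 3784.8 to 4779.5 CPM in the other 3, and it was 501.1 to 571.7 CPM in the CD8 T libraries. The cDC1 and class II counts were the same without this pool, but not without others. Without the pool given both antibodies 13 cDC1, 10 mature dendritic cell and 7 class II genes were lower in CD8 T cells. Without the RT pool these were 13, 10 and 10, and without the RT with anti-PD-1 pool 15, 12 and 10. Beyond a log2 difference of 1 they were 12, 9 and 7. With 1 pool to a treatment, the treatment and the pool cannot be told apart.

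**Figure D4:**
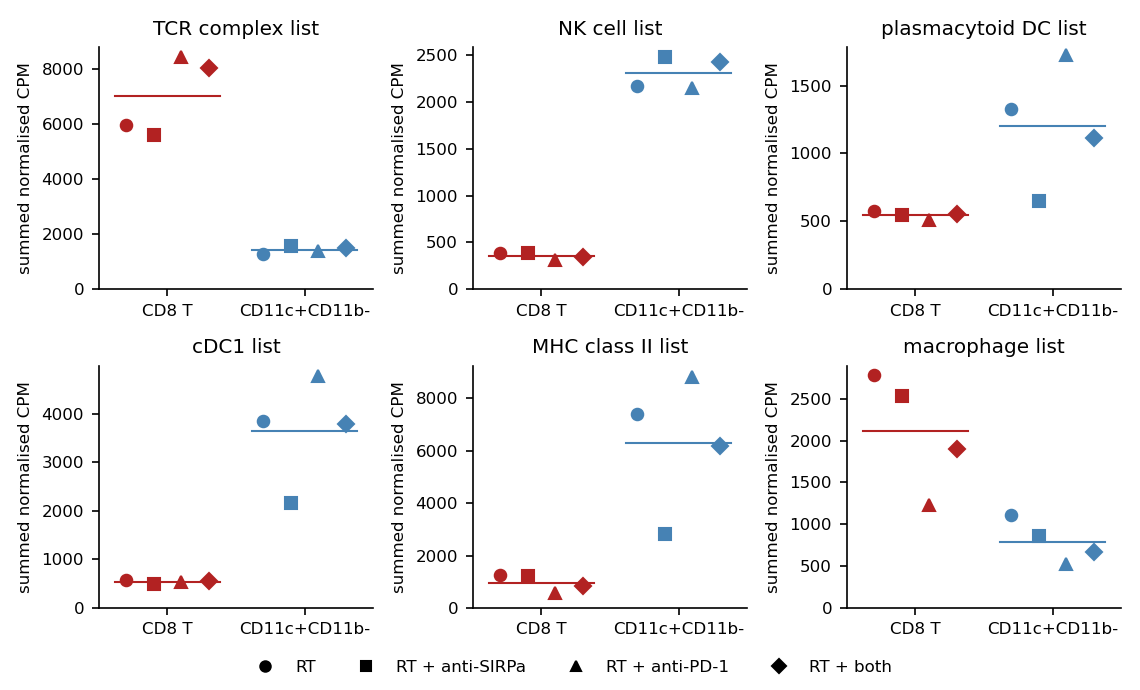
Summed normalised CPM of 6 gene lists in each irradiated CD8 T and CD11c+CD11b- library. Point shapes give the treatment of the pool and horizontal lines the mean of 4 libraries. The RT with anti-SIRPa library was the lowest CD11c+CD11b- library for the plasmacytoid, cDC1 and class II lists, and the macrophage list was higher in CD8 T libraries.

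All 12 macrophage markers were higher in CD8 T cells, with a median log2 difference of 1.38. Their summed level was 2781.9, 2535.7, 1234.4 and 1905.4 CPM in CD8 T libraries, against 1115.6, 859.8, 521.8 and 664.3 CPM in CD11c+CD11b- libraries, and was 11773.5 to 14579.9 CPM in the CD11c+CD11b+ libraries. Csf1r, the macrophage growth factor receptor, was at 264, 229, 130 and 190 CPM in CD8 T libraries, against 118, 71.1, 62.4 and 61.2 CPM in CD11c+CD11b- libraries. Itgam, the CD11b chain that the second sort excluded, was at 290, 196, 157 and 174 CPM in CD8 T libraries, against 118, 75.5, 59.8 and 66.8 CPM in CD11c+CD11b- libraries. In both populations the RT library was the highest and the RT with anti-PD-1 library the lowest, for Itgam and for the summed list. The part of these transcripts in other differences was not tested.

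B cell markers had 1 of 7 tested genes lower in CD8 T cells, Fcrla, against 10.4% lower among all genes. Neutrophil markers had 3 of 7 tested genes higher, at low levels: S100a9 was at 6.89, 16.7, 10.6 and 6.32 CPM in CD8 T libraries, against 1.30, 4.78, 1.25 and 1.48 CPM in CD11c+CD11b- libraries. Tumour and stromal markers had 3 of 7 tested genes lower, and the keratin genes were at or under 0.561 CPM in every library of the comparison. The list as a whole was well above the floor, summing to 769.5, 951.5, 430.1 and 546.4 CPM in CD8 T libraries. In CD11c+CD11b- libraries it summed to 1036.4, 1696.2, 611.5 and 622.6 CPM. The list for CD4 and regulatory T cells had 5 of 6 genes higher in CD8 T cells and 1 lower, with a median log2 difference of 2.62. The higher ones included Ctla4, also on the inhibitory receptor list, Il2ra (1.43 ± 0.10) and Ccr8 (3.44 ± 0.20, SE, n = 4 pools each). The lower one was Cd4, at 7.16, 6.59, 11.8 and 9.83 CPM in CD8 T libraries, against 57.2, 19.4, 75.1 and 35.4 CPM in CD11c+CD11b- libraries. Foxp3, the regulatory T cell factor, was higher, at 3.01, 5.31, 8.89 and 9.27 CPM in CD8 T libraries, against 0.67, 1.15, 0.259 and 0.645 CPM in CD11c+CD11b- libraries.

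Proliferation genes were higher in CD8 T cells by small amounts, 18 of 23 with a median log2 difference of 0.64 and none lower. Mki67 was at 1195.2, 1076.2, 1427.1 and 988 CPM in CD8 T libraries, against 681, 727, 625 and 740 CPM in CD11c+CD11b- libraries (log2 difference 0.74 ± 0.13, SE, n = 4 pools, edgeR adjusted p = 0.0111). The count depended on the pools, with 8 higher without the RT pool and 4 without the pool given both antibodies. Beyond a log2 difference of 1 it was 0. Interferon response genes had 14 of 28 higher and 2 lower, beside 8.57% and 10.4% of all genes, with a median of 0.31. There were 7 higher and 1 lower without the RT pool, as also without the pool given both antibodies. Without the pairing by pool 8 were higher and 2 lower, and beyond a log2 difference of 1 the counts were 1 and 0. Ifit3 differed by 1.29 ± 0.13 and Ifi27l2a by 1.91 ± 0.15, while Ifi44 differed by -1.34 ± 0.13 (SE, n = 4 pools each).

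Toll-like receptors and sensors had 3 of 15 higher and 4 lower, beside 8.57% and 10.4% of all genes. The counts were 4 higher and 7 lower without the RT with anti-SIRPa pool, and 3 and 3 without the RT with anti-PD-1 pool. They were 2 and 3 without the RT pool, as also without the pool given both antibodies. Beyond a log2 difference of 1 they were 1 and 3. Tlr11 and Tlr12, which sense profilin, differed by -4.51 ± 0.28 and -1.79 ± 0.21 and Tlr3 by -2.48 ± 0.35, while Tlr8 was higher by 1.42 ± 0.11. Of the ITAM adaptors and kinases, 5 of 16 were higher and 6 lower, beside 8.57% and 10.4% of all genes. Without the pool given both antibodies 3 of them were lower. Syk was at 79.1, 65.4, 43.8 and 48.5 CPM in CD8 T libraries, against 186, 121, 257 and 204 CPM in CD11c+CD11b- libraries, opposite to its paralog Zap70.

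**Figure D5:**
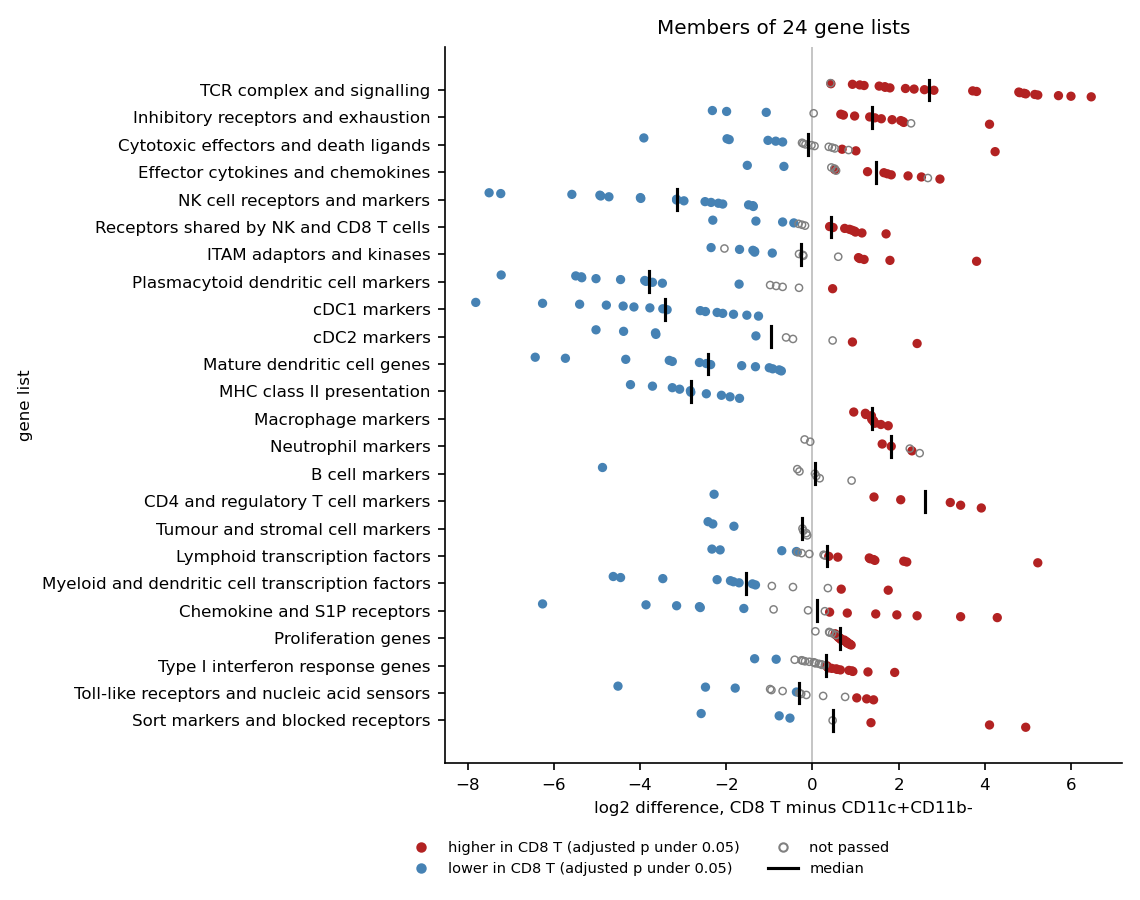
Log2 difference, CD8 T minus CD11c+CD11b-, of the members of 24 gene lists that were tested. Filled points passed, open points did not, and black bars give the list medians. The NK, cDC1, mature dendritic cell, class II and tumour and stromal lists lay wholly below 0. The T cell receptor, macrophage and proliferation lists lay wholly above it.

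The 4 pools also allow the population difference to be compared between antibody treatments. With anti-PD-1, 1 gene of 18866 passed, in the upward direction (0.00530%), and none in the other. The gene was Gm49450, a predicted model chosen after its values were seen. It was at 0, 0, 142 and 167 CPM in CD8 T libraries, and at 77.7, 127, 39.5 and 78.3 CPM in CD11c+CD11b- libraries, and its fitted value of 15.81 rests on libraries at 0 and is not a bound (edgeR adjusted p = 0.0347). At an unadjusted p under 0.05, 3085 genes were counted, and DESeq2 called 284. For anti-SIRPa no gene passed in edgeR (0.00%), 391 had an unadjusted p under 0.05 and DESeq2 called 5. The tests had 2 residual degrees of freedom, and a fit with terms for both antibodies, with 1 residual degree of freedom, called 2519 for anti-PD-1 and 627 for anti-SIRPa.

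None of the 7 markers passed for either antibody. The change of the population difference with anti-PD-1 was -2.06 ± 0.27 for Siglech (SE, 95% interval -2.73 to -1.39, edgeR adjusted p = 0.116) and 1.04 ± 0.34 for Cd3e (95% interval 0.20 to 1.88, edgeR adjusted p = 0.257). For Cd8a it was 0.32 ± 0.18 and for Pdcd1 0.01 ± 0.15. With anti-SIRPa, the change was -0.54 ± 0.25 for Ncr1 and 0.66 ± 0.46 for Xcr1. A change that misses the threshold in 4 pools does not show that the difference was the same in all of them.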

How the data were processed

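RNA of 20 libraries was sequenced, 8 of which enter the main comparison. The values are expected (estimated) counts per transcript, as deposited by the authors. The tools named in the submitters' processing notes are FastQC 0.11.8, HISAT2, StringTie and edgeR 3.34.0, with the build GRCm38. The deposited estimated counts were already whole numbers. Of 142699 transcripts, 141469 matched the GENCODE M21 annotation and were summed to 55260 genes. The 1230 left over carried no more than 0.40% of any library's counts. All 190 library pairs differed.

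Tests used edgeR 4.0.16 in R 4.3.3 with TMM normalisation, filterByExpr by population (minimum count 10, total 15), and a quasi-likelihood F-test with the pool as a block (3 residual degrees of freedom). Benjamini-Hochberg adjustment ran over all genes tested. SEs are approximate, each the size of the log2 difference divided by the root of its F value. CPM were normalised by TMM over the 16 irradiated libraries. DESeq2 1.42.0 was an alternative. Tables and figures were made in Python 3.11.15 with pandas 2.3.3 and matplotlib 3.10.9.

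The pairing comes from the labels, which pool the same 10 tumours for both populations. Deviations from the population means correlated within pools at 0.28, 0.148, 0.205 and 0.0429 over 9851 genes, for the pools in the order of the text. The highest correlation with another pool was 0.031, 0.177, 0.124 and 0.174, so 2 of the 4 pools correlated better with another pool than with their own. The code was tested on simulated counts.

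The named genes were the 10 per direction with the largest difference among passing genes at 10 CPM or more in 2 libraries and with the same direction in all 4 pools, leaving out predicted models, receptor segments and pseudogenes, and members of 24 gene lists with a mean of at least 10 CPM or a defining role. A few list members are counted with their list and not reported here by name. The members and lists were chosen with earlier results of these data known. Promoter sequences are from RefSeq. Library totals ran from 21.5 to 35.7 M counts over the series.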

Additional observations from a re-analysis of the deposited data

Results flagged for a closer look

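In 342 sets of 4 libraries (171 genes in 2 populations), 15 had 1 library far from the other 3, and chance flags about 1 in 20. The values below are CPM. In CD11c+CD11b- cells the RT with anti-SIRPa library was the outlying one for Cd3e (11.9, the others 5.57 to 6.18), Cd6 (6.45, the others 3.83 to 3.99), S100a9 (4.78, the others 1.25 to 1.48), Prf1 (1211.1, the others 914 to 959), Gpr141b (8.90, the others 25.9 to 28.8) and Tlr3 (52.4, the others 93.9 to 94.6). The RT library stood apart there for Isg15 (78.6, the others 64.0 to 65.7) and Lat2 (81.3, the others 93.9 to 95.5), and the RT with anti-PD-1 library for Cd8a (40.8, the others 27.4 to 28.7).

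In CD8 T cells the RT with anti-PD-1 library stood apart for Gldc (24.5, the others 17.3 to 17.8) and Klra8 (1.04, the others 0.66 to 0.707), and the RT library for Fcrla (2.39, the others 0.541 to 0.783). The library given both antibodies stood apart for Flt3 (1.18, the others 2.43 to 2.67) and Sept3 (0.486, the others at 0), and the RT with anti-SIRPa library for Gcsam (0.412, the others at 0). Gm49450 was flagged because its population difference changed with anti-PD-1, by a fitted log2 value of 15.81.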

How the results depend on the processing

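The alternatives for the comparison of CD8 T with CD11c+CD11b- cells were DESeq2, RLE normalisation, dropping the filter on low counts, dropping the block, all 16 irradiated libraries in 1 fit, a test beyond a log2 difference of 1, and each pool left out. The 3587 passing genes became 834 under the test beyond a log2 difference of 1, and 1661 to 4240 with a pool left out. The other settings stayed within 1.5 times, among them 3880 without the pairing by pool and 2618 without the filter. The change with anti-PD-1 (1 gene) became 284 genes in DESeq2, 2519 with terms for both antibodies, 11 without the replicate block and 0 without the filter. The change with anti-SIRPa (0 genes) became 5 in DESeq2 and 627 with both terms. The cause was not tested. The comparison of CD11c+CD11b- with CD11c+CD11b+ cells (9529 genes) stayed within 1.5 times, at 7712 without the block.

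Of 171 named genes, 147 passed, and none of these reversed under the alternatives run. Of these calls, 40 were lost in the test beyond a log2 difference of 1, 10 without the filter, 4 with 16 libraries, 2 without the block, and 1 to 16 with a pool left out (16 without the pool given both antibodies, 13 without the RT pool). Up to 7 other named genes passed in a setting where they had not. Some genes that did not pass changed sign. Over the 4 fits without a pool, the log2 difference ran from -0.13 to 0.25 for Tnfrsf9 (-0.0045 with 16 libraries), from -0.51 to 0.06 for Prf1, from -0.07 to 0.04 for Srgn, from -0.02 to 0.20 for E2f1 and from -0.03 to 0.11 for Isg15.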

Other observations

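The variable segments of the T cell receptor were left out of the named genes and were looked at after the values were seen. Of 61 alpha chain V segments tested, 58 were higher in CD8 T cells, and so were 19 of 19 beta chain V segments. The median log2 differences were 5.74 and 5.77, and 8.57% of all genes were higher. These segments could enter the test through the CD8 T libraries alone, so the counts describe the segments and are not independent support. Among those that passed, 15 alpha and 1 beta segments had 0 counts in all CD11c+CD11b- libraries. Summed over the beta V segments, the level was 189, 165, 280 and 222 CPM in CD8 T libraries, against 2.35, 5.15, 2.20 and 4.13 CPM in CD11c+CD11b- libraries. The beta constant regions Trbc1 and Trbc2 differed by log2 values of 0.93 and 2.82 in the same libraries. The split of reads between them is uncertain.

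The delta chain ran the other way. Trdc, the delta constant region, averaged 2.72 ± 0.946 CPM in CD8 T cells and 40.3 ± 6.37 CPM in CD11c+CD11b- cells (SD, n = 4 each), a log2 difference of -3.94 ± 0.19 (SE, edgeR adjusted p = 8.34e-05). All 3 delta V segments tested were lower in CD8 T cells, and could enter the test through the CD11c+CD11b- libraries alone. The gamma constant region Tcrg-C2 averaged 43.4 ± 10.1 CPM in CD8 T cells and 1.05 ± 0.899 CPM in CD11c+CD11b- cells (log2 difference 5.43 ± 0.65, SE, edgeR adjusted p = 0.00213), while Tcrg-C4 averaged 4.53 ± 1.67 CPM in CD8 T cells and 8.57 ± 1.06 CPM in CD11c+CD11b- cells (log2 difference -0.98 ± 0.24, SE, edgeR adjusted p = 0.0338). Gamma constant regions are near-identical, and their separate values are uncertain.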
